A study of Homo sapiens with 12 samples.

Results

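The mitochondrial genome is a small circular chromosome that encodes 13 mRNAs, 2 rRNAs and 22 tRNAs, and these 37 genes were followed through a time course of TAZ activation. They were taken as every row on the mitochondrial chromosome (chrM, 16569 bases, GRCh38) among the 60483 gene rows of each library, and all 37 were present. RNA was measured in MCF10A cells, an immortalised and non-tumorigenic human mammary epithelial line, transduced with a doxycycline (Dox)-inducible TAZ-4SA. TAZ, the protein of WWTR1, is a transcriptional co-activator restrained by the Hippo pathway, and 4SA denotes a form in which serines that the pathway phosphorylates are replaced. The 12 libraries formed 4 groups of 3, namely transduced cells without Dox (No Dox, 0 h) and transduced cells after 24, 48 or 72 h in 0.05 µg/mL Dox. The transgene was present in all 4 groups. No Dox-treated cells lacking it, and no untreated cells kept for longer, were analysed here, so TAZ-4SA, Dox itself and culture time cannot be told apart. The labels do not say whether the 3 libraries of a group were separate cultures. The p-values therefore rest on the spread among these libraries alone, and that spread may be technical.

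Libraries held 15382564 to 26570132 expected counts. All 10 epithelial markers (EPCAM, CDH1, KRT5 and others) had counts. Their summed level, in CPM (counts scaled to a common library total), was 9344 without Dox, 6178 at 24 h, 7103 at 48 h and 8102 at 72 h. That sum covers members that went opposite ways: of the 10, 5, 4 and 5 were higher and 5, 5 and 4 lower at 24, 48 and 72 h (adjusted p under 0.05, edgeR), where 37.1%, 36.0% and 34.3% of all tested genes were higher and 38.1%, 35.8% and 34.8% lower. The keratin KRT8 had means of 213 CPM in No Dox libraries, then 874, 1644 and 2232 CPM over the Dox times, and its partner KRT18 averaged 372 without Dox and 798, 1556 and 1923. KRT17 averaged 2395 CPM without Dox and 511, 527 and 601, and the integrin ITGB4 1538 without Dox and 268, 363 and 512. Among the fibroblast, blood and endothelial markers, COL3A1, PDGFRA and CD3E were at 0 in every library. The 6 fibroblast markers summed to 55.1 to 56.7 CPM without Dox, mostly DCN, to 3.11 to 4.83 CPM at 24 h, 1.92 to 2.99 CPM at 48 h and 1.99 to 3.48 CPM at 72 h. COL1A1 averaged 4.47 CPM without Dox and 2.40, 1.52 and 1.81 CPM at the Dox times, and PDGFRB averaged 0.399 without Dox and 0.154, 0.746 and 0.770. The 6 blood and endothelial markers summed to 13.2 to 14.9 CPM without Dox, to 4.86 to 6.61 CPM at 24 h, 2.28 to 2.66 CPM at 48 h and 4.44 to 5.18 CPM at 72 h. These were mostly CD68, with 7.58 CPM without Dox and 5.42, 2.48 and 4.74 CPM at the Dox times, and PECAM1, with 6.53 CPM without Dox and at most 0.0422 CPM on average at any Dox time. Their part in the results below was not tested. WWTR1 averaged 72.6 ± 2.47 CPM in No Dox libraries, 877 ± 75.6 at 24 h, 841 ± 80.5 at 48 h and 997 ± 70.2 at 72 h (SD, n = 3 each).

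Both strands of the mitochondrial genome are transcribed by the polymerase POLRMT into long precursors. tRNAs lie between most of the other genes, and their excision releases the rRNAs and mRNAs, most of which then receive short poly(A) tails. The mRNAs encode core subunits of respiratory complexes I, III and IV and of the ATP synthase (complex V), and the rRNAs build the mitochondrial ribosome that translates them. Because precursors are shared, the steady level of each product also depends on processing and on decay.

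The coding ends of the mRNAs differ. In 6 of the 13 mRNAs the last codon is incomplete in the genome and is completed by the tail, and in the other 7 it is complete. The last 24 bases of the coding stretch of 6 mRNAs on which the results turn, and which took different courses, are shown, 5′ to 3′, with the last codon, or the part of it that the genome encodes, in capitals (GRCh38).
MT-ND1: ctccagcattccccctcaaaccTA
MT-ND2: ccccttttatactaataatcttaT
MT-CO3: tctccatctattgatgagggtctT
MT-CO1: gaacccgtatacataaaatctAGA
MT-ND5: ctaaccctactcctaatcacaTAA
MT-ND6: attgagattgctcgggggaatAGG
MT-ND1, MT-ND2 and MT-CO3 end in an incomplete codon, and MT-CO1, MT-ND5 and MT-ND6 in a complete one. The first group is followed directly by a tRNA on the same strand, and the tail is added at that end. The RNAs of the other group are known to run on past the bases shown, and that of MT-ND6 is known to lack a poly(A) tail, so these ends are not tail sites. MT-ND6 is the only mRNA on the minus strand, and its base composition differs from the others: it holds 7.05% C and 35.6% G, whereas MT-ND5, its neighbour on the plus strand, holds 34.3% C and 10.6% G.

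MT-ATP6 and MT-CO3 share 1 base. In 2 other places reading frames overlap by more than 1 base, and each of these 2 pairs is carried on 1 mRNA. The stretches of these 2 pairs are shown with the shared bases in capitals, because fragments there can come from either annotated gene.
MT-ATP8/MT-ATP6 (chrM:8515-8584, plus strand, 46 shared bases): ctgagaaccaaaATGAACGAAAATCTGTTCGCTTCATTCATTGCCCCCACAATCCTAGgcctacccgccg
MT-ND4L/MT-ND4 (chrM:10748-10778, plus strand, 7 shared bases): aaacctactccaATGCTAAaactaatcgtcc
In both stretches the capitals open with the start codon of the downstream gene and close with the last codon of the upstream gene.

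The 2 rRNAs together fell by more than the 13 mRNAs together. They took 0.798%, 0.829% and 0.786% of the counts in the No Dox libraries. The shares were 0.244%, 0.241% and 0.217% at 24 h, 0.186%, 0.172% and 0.180% at 48 h, and 0.169%, 0.169% and 0.209% at 72 h. Every Dox library was below every No Dox library, and the group means were 3.44-, 4.48- and 4.41-fold lower at 24, 48 and 72 h than without Dox. The 13 mRNAs took 4.47%, 4.20% and 4.38% of the counts without Dox, 3.46%, 2.997% and 3.39% at 24 h, 3.17%, 3.004% and 2.96% at 48 h, and 2.90%, 3.05% and 3.17% at 72 h. Here too the Dox groups did not overlap with No Dox, but the means were only 1.33-, 1.43- and 1.43-fold lower. The rRNA counts were 0.0716 ± 0.0083 of the mRNA counts at 24 h, against 0.185 ± 0.011 without Dox (SD, n = 3 each). A share can fall because each cell holds fewer of these transcripts or because other transcripts increase, and bulk shares cannot tell these apart. No test was made of a sum over genes.

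**Figure D1:**
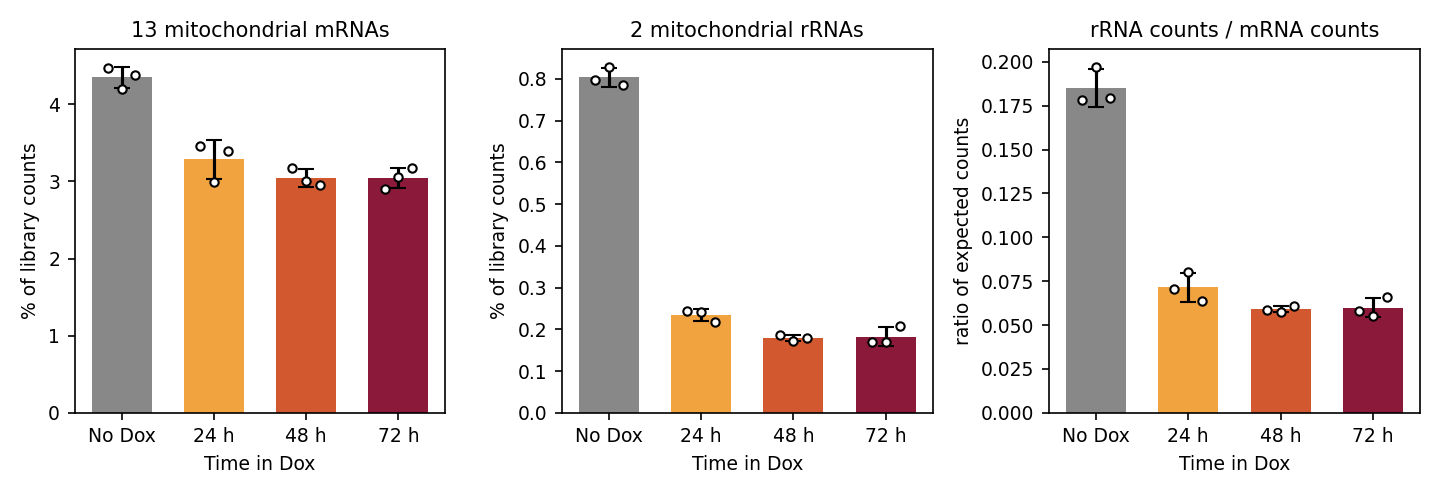
Share of each library's expected counts on the 13 mitochondrial mRNAs (left, %) and the 2 mitochondrial rRNAs (middle, %), and the ratio of the rRNA to the mRNA counts (right), for No Dox and 24, 48 and 72 h in Dox. Bars are means, error bars the SD and points the 3 libraries of a group; the rRNA share averaged 0.804% without Dox and 0.234%, 0.180% and 0.182% at 24, 48 and 72 h.

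In units of TPM, which divide by the length open to fragments, the drops of the mRNAs and of the rRNAs were smaller. The mRNA share of TPM was 11.4%, 10.6% and 11.3% at 24 h, against 12.4%, 11.4% and 11.8% without Dox, so all 3 libraries at 24 h lay below the lowest No Dox library. At 72 h it was 9.37%, 9.69% and 9.70%, below all 3 No Dox libraries. MT-ATP8 weighs on this unit: it took 23.5 to 29.7% of mitochondrial mRNA TPM but only 0.093 to 0.193% of the mitochondrial mRNA counts, since RSEM gave it an effective length (start positions open to a fragment) of 1.56 to 2.86 nt. The rRNA share of TPM was 0.274%, 0.280% and 0.245% at 24 h, against 0.802%, 0.827% and 0.796% without Dox.

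Each gene was then tested in edgeR's quasi-likelihood fit over 14822 genes. The 22 tRNAs, of 59 to 75 nt, had an effective length of 0 and therefore 0 counts in every library. They were not tested, and nothing can be said of their levels. The 13 mRNAs and 2 rRNAs were all tested. At 24 h against No Dox, 3 were higher, 8 lower and 4 did not pass an adjusted p (Benjamini-Hochberg, over all genes tested) under 0.05, where 75.2% of all tested genes passed (37.1% higher and 38.1% lower). At 48 h, 3 were higher and 10 lower, where 71.8% of all genes passed (36.0% higher and 35.8% lower). At 72 h, 0 were higher and 11 lower, where 69.2% of all genes passed (34.3% higher and 34.8% lower). The number of members that passed, 11, 13 and 11 of 15, was thus near the background, and more of them were lower than higher at each time. A fold of at least 2 was also reached by 1, 2 and 4 of the 15 at 24, 48 and 72 h, all lower. Of all genes, 29.6%, 25.1% and 22.5% did so in either direction and 17.7%, 14.4% and 12.3% were lower. The median log2 fold change of the 13 mRNAs was -0.11, -0.42 and -0.33 at 24, 48 and 72 h, beside -0.03, -0.01 and -0.02 for all genes tested.

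**Figure D2:**
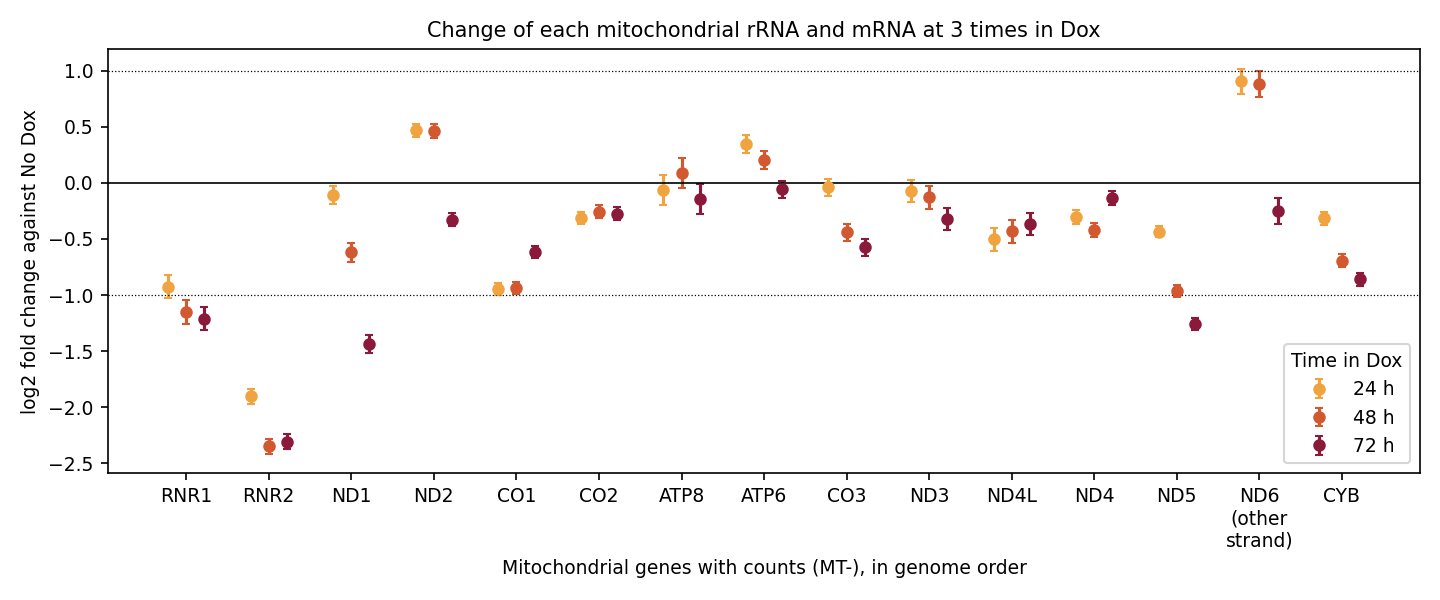
Log2 fold change against No Dox (y axis, edgeR) of the 2 mitochondrial rRNAs and 13 mRNAs in genome order (x axis), at 24, 48 and 72 h in Dox. Points are fitted changes, bars their SE and dotted lines a 2-fold change; MT-RNR2 reached -2.35 at 48 h, MT-ND1 fell step by step to -1.44 at 72 h, and MT-ND2 and MT-ND6 were above 0 at 24 and 48 h.

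MT-RNR2 (ENSG00000210082.2, chrM:1671-3229), the large-subunit rRNA, was the most reduced member at each time. It stood at 7047, 7308 and 6895 CPM without Dox, 1925, 1898 and 1718 at 24 h, 1417, 1299 and 1396 at 48 h, and 1332, 1340 and 1573 at 72 h. Every Dox library lay far below every No Dox library. Log2 fold changes were -1.90 ± 0.06, -2.35 ± 0.07 and -2.31 ± 0.07 (SE), with adjusted p of 1.43e-16, 6.43e-18 and 9.3e-18. MT-RNR1 (ENSG00000211459.2, chrM:648-1601), the small-subunit rRNA upstream of it, fell less. It stood at 929, 987 and 963 CPM without Dox, 515, 510 and 451 at 24 h, 448, 424 and 405 at 48 h, and 359, 349 and 518 at 72 h. Log2 fold changes were -0.93 ± 0.10, -1.15 ± 0.10 and -1.21 ± 0.10, with adjusted p of 5.42e-08, 2.44e-09 and 1.25e-09. The MT-RNR2 to MT-RNR1 count ratio was 7.38 ± 0.21 without Dox and 3.76 ± 0.05, 3.23 ± 0.20 and 3.53 ± 0.43 at 24, 48 and 72 h. MT-RNR2 made up 91.8%, 91.4% and 91.1% of the drop in the rRNA share.

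Mitochondrial rRNAs carry very short tails, so their recovery by poly(A) capture is partial, and the measured level need not equal the amount of rRNA. Other RNAs that lack a long tail were counted as well. The non-histone ones were few, and 4 of them were at 0 in every library. Of 65 replication-dependent histone genes 16 were tested, and 12, 14 and 13 of these were lower at 24, 48 and 72 h and 0 higher, where 38.1%, 35.8% and 34.8% of all tested genes were lower. The median log2 fold change of the 16 was -2.02, -1.93 and -1.64. Their summed level was 113 ± 9.18 CPM in No Dox libraries and 20.8 ± 1.64, 21.5 ± 1.03 and 27.6 ± 1.11 CPM at 24, 48 and 72 h. H2AC25 averaged 4.57 ± 0.91 CPM at 24 h, against 36.9 ± 4.58 without Dox, and H2AC6 averaged 1.26 ± 0.32 CPM at 24 h, against 20.3 ± 2.66 without Dox. Of the non-histone RNAs without a tail, 10 were in the files and 4 were tested. At 24 h 1 was lower and 0 higher, at 48 h 1 was lower and 1 higher, and at 72 h 0 were lower and 1 higher. Of all tested genes, 37.1%, 36.0% and 34.3% were higher. The median log2 fold change of the 4 was -0.16, 0.25 and 0.31. The 10 summed to 232 ± 37.45 CPM without Dox and to 218 ± 104, 283 ± 42.25 and 298 ± 276 CPM at 24, 48 and 72 h. RMRP averaged 0.206 CPM at 24 h, against 0.769 without Dox, and RN7SL3 averaged 5.31 CPM at 48 h, against 2.02 without Dox. The 1 higher at 72 h was RN7SL3, at 10.2, 2.03 and 2.56 CPM, against 2.24, 1.94 and 1.89 CPM without Dox. These groups overlapped. The part of capture in the rRNA result was not tested.

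Complex I, the entry point of electrons from NADH, has 7 mitochondrial subunits, and they did not move together. MT-ND1 (ENSG00000198888.2, chrM:3307-4262), the gene after the rRNAs, fell late. It stood at 1592, 1536 and 1528 CPM without Dox, 1553, 1237 and 1411 at 24 h, 1049, 925 and 1006 at 48 h, and 493, 583 and 626 at 72 h. The 24 h group overlapped with No Dox, and the later groups lay below it. Log2 fold changes were -0.11 ± 0.08, -0.62 ± 0.08 and -1.44 ± 0.08, with adjusted p of 0.218, 6.94e-07 and 1.75e-12. The 24 h value passed without the first 24 h library (log2 fold change -0.19, adjusted p 0.0455).

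MT-ND2 (ENSG00000198763.3, chrM:4470-5511), which follows it on the same strand, took another course. It stood at 2013, 1873 and 1974 CPM without Dox, 2797, 2357 and 2739 at 24 h, 2796, 2581 and 2566 at 48 h, and 1481, 1583 and 1555 at 72 h. The first 2 Dox groups lay above No Dox and the last below it. Fitted log2 fold changes came to 0.47 ± 0.06, 0.46 ± 0.06 and -0.33 ± 0.06, with adjusted p of 5.95e-07, 7.76e-07 and 6.75e-05. Between 48 and 72 h it changed by -0.79 ± 0.06 (adjusted p 5.4e-09).

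MT-ND5 (ENSG00000198786.2, chrM:12337-14148), a proton-pumping subunit, fell at each step. It stood at 1617, 1530 and 1519 CPM without Dox, 1167, 1056 and 1146 at 24 h, 774, 747 and 837 at 48 h, and 614, 662 and 653 at 72 h. No group overlapped with the next. Log2 fold changes against No Dox were -0.43 ± 0.05, -0.96 ± 0.05 and -1.26 ± 0.05, with adjusted p of 2.35e-07, 8.22e-13 and 1.11e-14.

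MT-ND6 (ENSG00000198695.2, chrM:14149-14673), the minus-strand mRNA and another complex I subunit, rose first. It stood at 188, 180 and 139 CPM without Dox, 283, 297 and 345 at 24 h, 307, 308 and 302 at 48 h, and 178, 117 and 126 at 72 h. All 24 and 48 h libraries were above all No Dox libraries, and the 72 h libraries overlapped with them. Its changes on the log2 scale were 0.90 ± 0.12, 0.88 ± 0.12 and -0.25 ± 0.12, with adjusted p of 4.18e-07, 7.04e-07 and 0.0649. The 72 h change passed without the third No Dox library (-0.36, adjusted p 0.00968) or without the first 72 h library (-0.44, adjusted p 0.000711). It also passed with upper-quartile factors (-0.28, adjusted p 0.039), without a filter on low counts (-0.22, adjusted p 0.000318) or with a replicate block (-0.25, adjusted p 0.0422). Under the other settings it did not pass. The kit marks strand, but the strand setting used in counting is not given in the sources used here. If it was not used, plus-strand precursor across the gene and MT-ND6 itself cannot be told apart. Because its RNA lacks a tail, its recovery by poly(A) capture is also partial, and the part of capture in its changes was not tested.

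MT-ND4 (ENSG00000198886.2, chrM:10760-12137) fell at 24 and 48 h and did not pass at 72 h. It averaged 3894 ± 215 CPM without Dox and 3079 ± 289, 2858 ± 125 and 3515 ± 118 at 24, 48 and 72 h, with log2 fold changes of -0.30, -0.42 and -0.13 (adjusted p 0.000195, 3.9e-06 and 0.0663). The 72 h libraries nevertheless lay below all No Dox libraries. The 72 h value passed without the second No Dox library (-0.17, adjusted p 0.0432) or without the second 24 h library (-0.13, adjusted p 0.0284). It also passed with library totals alone (-0.15, adjusted p 0.0251) or upper-quartile factors (-0.17, adjusted p 0.0244). The same held without a filter on low counts (-0.105, adjusted p 0.0457) and with a replicate block (-0.13, adjusted p 0.0408), but not under the other settings. MT-ND4L, its upstream partner on the same mRNA, was lower at each time, with log2 fold changes of -0.50, -0.43 and -0.37 (SE 0.10 each, adjusted p 0.000153, 0.000724 and 0.00314). Its 72 h libraries, at 236 to 339 CPM, overlapped with No Dox, at 323 to 429 CPM. MT-ND3, between MT-CO3 and MT-ND4L, had log2 fold changes of -0.08, -0.13 and -0.32 (SE 0.10 each, adjusted p 0.50, 0.242 and 0.0066). Only the 72 h value passed, and it no longer did without the second No Dox library (-0.25, adjusted p 0.0538) or without the second 72 h library (-0.20, adjusted p 0.0624). The 72 h and No Dox libraries of MT-ND3 also overlapped.

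**Figure D3:**
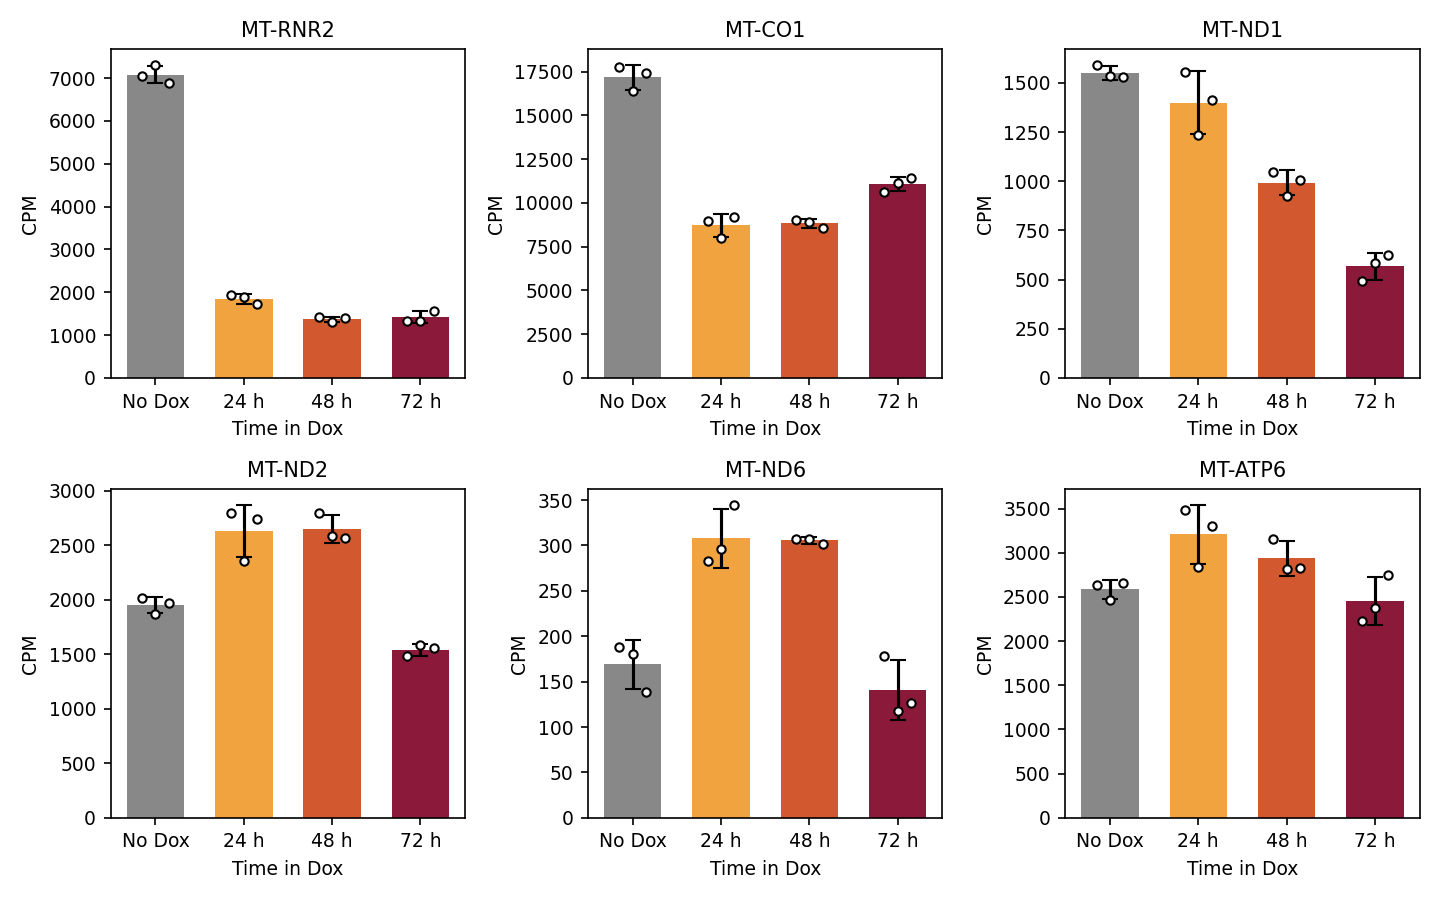
Level (CPM, y axes starting at 0) of MT-RNR2, MT-CO1, MT-ND1, MT-ND2, MT-ND6 and MT-ATP6 in No Dox and at 24, 48 and 72 h in Dox. Bars are means, error bars the SD and points the 3 libraries of a group. MT-RNR2 and MT-CO1 were low from 24 h on, and MT-ND1 declined over the 3 times. MT-ND2 and MT-ND6 were high at 24 and 48 h. At 72 h MT-ND2 lay below No Dox and MT-ND6 overlapped with it.

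MT-CYB (ENSG00000198727.2, chrM:14747-15887), cytochrome b and the 1 mitochondrial subunit of complex III, fell steadily. It stood at 2503, 2342 and 2480 CPM without Dox, 2051, 1768 and 1919 at 24 h, 1553, 1437 and 1472 at 48 h, and 1265, 1360 and 1370 at 72 h. The groups did not overlap with each other. On the log2 scale it changed by -0.32 ± 0.06, -0.69 ± 0.06 and -0.86 ± 0.06, with adjusted p of 4.08e-05, 6.31e-10 and 2.17e-11.

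Complex IV, cytochrome c oxidase, has 3 mitochondrial subunits, and the catalytic one carried most of the mRNA drop at 24 and 48 h. MT-CO1 (ENSG00000198804.2, chrM:5904-7445) stood at 17743, 16377 and 17395 CPM without Dox, 8951, 7990 and 9193 at 24 h, 9037, 8888 and 8567 at 48 h, and 10635, 11122 and 11417 at 72 h. It was lowest at 24 and 48 h and partly higher again at 72 h, still below No Dox. The fitted log2 changes were -0.94 ± 0.05, -0.94 ± 0.05 and -0.62 ± 0.05, with adjusted p of 1.32e-12, 1.72e-12 and 1.78e-09. The step between 48 and 72 h was 0.32 ± 0.05 (adjusted p 0.000101). MT-CO1 made up 79.2%, 63.8% and 46.7% of the drop in the mRNA share at 24, 48 and 72 h. Without it, the other 12 mRNAs took 2.568%, 2.198% and 2.475% of counts at 24 h, against 2.566 to 2.700% without Dox. These groups overlapped only through the first 24 h library. The other 12 mRNAs took 2.10 to 2.27% at 48 h and 1.84 to 2.03% at 72 h, below every No Dox library.

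MT-CO2 (ENSG00000198712.1, chrM:7586-8269), which carries the copper centre that accepts electrons from cytochrome c, fell by less than MT-CO1 at each time. It averaged 6029 ± 33.7 CPM without Dox and 4735 ± 421, 4964 ± 228 and 4934 ± 95.3 at 24, 48 and 72 h. Against No Dox the log2 fold changes were -0.31, -0.26 and -0.27 (SE 0.06 each, adjusted p 3.48e-05, 0.000313 and 0.000177). MT-CO3 (ENSG00000198938.2, chrM:9207-9990), the third core subunit, fell later: it stood at 4951, 4649 and 5111 CPM without Dox, 4877, 4283 and 4795 at 24 h, 3726, 3553 and 3390 at 48 h, and 2804, 3241 and 3713 at 72 h. Fitted log2 fold changes came to -0.04 ± 0.08, -0.44 ± 0.08 and -0.58 ± 0.08, with adjusted p of 0.652, 3.68e-05 and 1.38e-06. The MT-CO1 to MT-CO3 count ratio was 3.503 ± 0.091 without Dox and 1.87 ± 0.04, 2.48 ± 0.05 and 3.43 ± 0.36 at 24, 48 and 72 h.

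**Figure D4:**
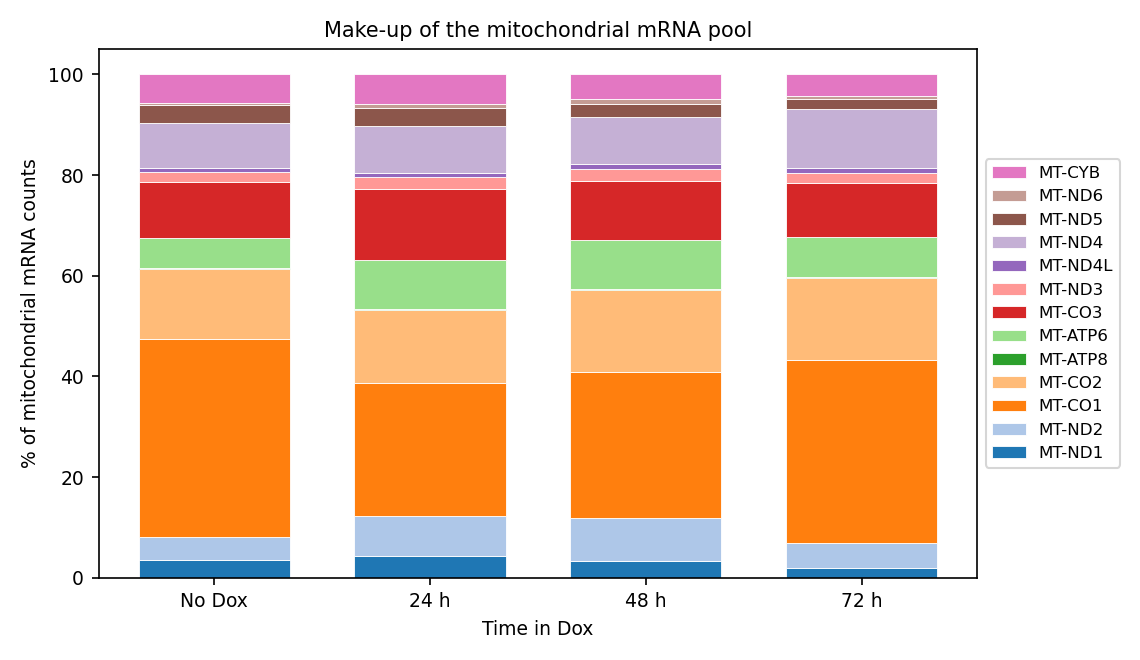
Percent of the mitochondrial mRNA counts taken by each of the 13 mRNAs (stacked, mean of 3 libraries) in No Dox and at 24, 48 and 72 h in Dox. MT-CO1 averaged 39.4% without Dox and 26.5%, 29.0% and 36.3% at 24, 48 and 72 h, while MT-ATP6 averaged 5.94% without Dox and 9.75%, 9.63% and 8.04%.

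Complex V, the ATP synthase, has 2 mitochondrial subunits. MT-ATP6 (ENSG00000198899.2, chrM:8527-9207), the proton channel subunit, stood at 2630, 2460 and 2662 CPM without Dox, 3484, 2837 and 3304 at 24 h, 3158, 2821 and 2826 at 48 h, and 2233, 2371 and 2753 at 72 h. The 24 and 48 h libraries lay above No Dox and the 72 h libraries overlapped with it. Its changes on the log2 scale were 0.35 ± 0.08, 0.21 ± 0.08 and -0.06 ± 0.08, with adjusted p of 0.000474, 0.0245 and 0.519. The 48 h value no longer passed without the second No Dox library (0.17, adjusted p 0.102) or without the first 48 h library (0.15, adjusted p 0.119), nor with DESeq2 (0.19, adjusted p 0.113). It also did not pass with upper-quartile factors (0.149, adjusted p 0.0961). The same held with effective lengths in edgeR (0.188, adjusted p 0.105) and DESeq2 (0.168, adjusted p 0.157). MT-ATP8 (ENSG00000228253.1, chrM:8366-8572), on the same mRNA, had log2 fold changes of -0.06 ± 0.14, 0.09 ± 0.13 and -0.14 ± 0.14 (adjusted p 0.687, 0.568 and 0.353). Its direction was not stable, since without the first 24 h library the 24 h value was 0.08.

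MT-ATP8 has 207 bases, fewer than the mean fragment of 259 to 279 nt, and its counts moved with the fragment length of a library. The 3 libraries with a mean fragment above 270 nt, 1 each from No Dox, 24 h and 72 h, had 37.4 to 40.9 CPM of MT-ATP8. The other 9 had 48.1 to 60.1 CPM. MT-ND4L (297 bases) had 233 to 323 CPM in these 3 libraries and 271 to 429 CPM in the other 9, and MT-ND3 (346 bases) had 742 to 807 and 544 to 909 CPM. The part of fragment length in the group differences was not tested, though the fit with effective lengths gave -0.39 (adjusted p 0.000374) for MT-ATP8 at 72 h and no pass for MT-ND3 (adjusted p 0.123).

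Levels of different genes can be compared only per length. In CPM per kb without Dox, MT-CO1 stood highest at 11136 ± 460, before MT-CO2 at 8814 ± 49.2, MT-CO3 at 6255 ± 299 and MT-RNR2 at 4544 ± 134. MT-ND6 at 322 ± 50.5 and MT-ATP8 at 256 ± 50.5 were lowest and overlapped with each other. At 72 h MT-CO2 at 7214 ± 139 and MT-CO1 at 7171 ± 256 overlapped at the top, and MT-RNR2 stood at 908 ± 87.7, below MT-ND2 at 1478 ± 50.4. In TPM the first place went to MT-ATP8 in both groups, with 24737 ± 1817 at 72 h and 30007 ± 2681 without Dox.

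The members also differed between Dox times. At 48 h against 24 h, 5 were lower and 0 higher, where 36.5% of all genes passed (18.3% in each direction). At 72 h against 48 h, 2 were higher and 6 lower, where 38.7% of all genes passed (18.6% higher and 20.1% lower). At 72 h against 24 h, 2 were higher and 10 lower, where 60.7% of all genes passed (30.5% higher and 30.2% lower). Members also past 2-fold numbered 0, 1 and 2, all lower, where 4.51%, 3.24% and 12.3% of all genes did so and 1.44%, 0.938% and 3.99% were lower. MT-ND6 changed most between 48 and 72 h, by -1.13 ± 0.12 (adjusted p 2.47e-07), and MT-ND1 most between 24 and 72 h, by -1.32 ± 0.08 (adjusted p 2.37e-11). The 2 that rose between 48 and 72 h were MT-CO1 and MT-ND4 (0.29 ± 0.06, adjusted p 0.000986).

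Reads of mitochondrial origin can also match nuclear copies of these genes. Of 390 such copies named in the annotation, 353 had 0 counts in every library and only 3 were tested. MTATP6P1, on chromosome 1, took most of them, and copies made up 6.34% of the MT-ATP6 plus copy counts without Dox and 5.84%, 6.30% and 5.29% at 24, 48 and 72 h. For MT-CO1 these shares were 0.85% without Dox and 0.84%, 0.89% and 0.67% at 24, 48 and 72 h, and for every other member with named copies they were below 0.06%. MTCO1P12, a copy of MT-CO1 on chromosome 1, had log2 fold changes of -0.97, -0.88 and -0.94 (SE 0.09 each, adjusted p 1.62e-09, 8.37e-09 and 3.27e-09). Adding each member's named copies to it changed no call. The 2 rRNAs had 0 named copies, so nothing was added to their counts and this step says nothing of them. Copies without a name were not covered.

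The proteins that make and process these RNAs are encoded in the nucleus. The counts of their genes that passed are read against all tested genes, of which 37.1%, 36.0% and 34.3% were higher and 38.1%, 35.8% and 34.8% lower at 24, 48 and 72 h, with median log2 fold changes of -0.03, -0.01 and -0.02. No test compared a list with other genes. Of 8 genes of mitochondrial transcription, 6 were higher and 0 lower at 24 h and at 48 h, and 5 were higher and 1 lower at 72 h, with median log2 fold changes of 0.54, 0.48 and 0.31. POLRMT, the polymerase itself, stood at 45.6, 44.5 and 48.3 CPM without Dox, 99.9, 87.0 and 102 at 24 h, 87.1, 76.8 and 83.7 at 48 h, and 73.4, 66.4 and 64.4 at 72 h. Every Dox library was above every No Dox library, and log2 fold changes were 1.10, 0.86 and 0.57 (SE 0.07 each, adjusted p 1.4e-11, 1e-09 and 6.07e-07). TFAM, which packages mitochondrial DNA and opens its promoters, changed by 0.49, 0.46 and 0.14 (SE 0.06 each, adjusted p 1e-07, 3.01e-07 and 0.0392). TEFM, the elongation factor, was higher at each time by 0.76, 0.51 and 0.62 (adjusted p 5e-05, 0.00314 and 0.00051). TFB2M, which melts the promoter, was higher at 24 and 48 h, and at 72 h it had -0.09 (adjusted p 0.19). MTERF1, a terminator protein that binds beyond the rRNA genes, passed only at 72 h, with -0.41 (adjusted p 0.000534).

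**Figure D5:**
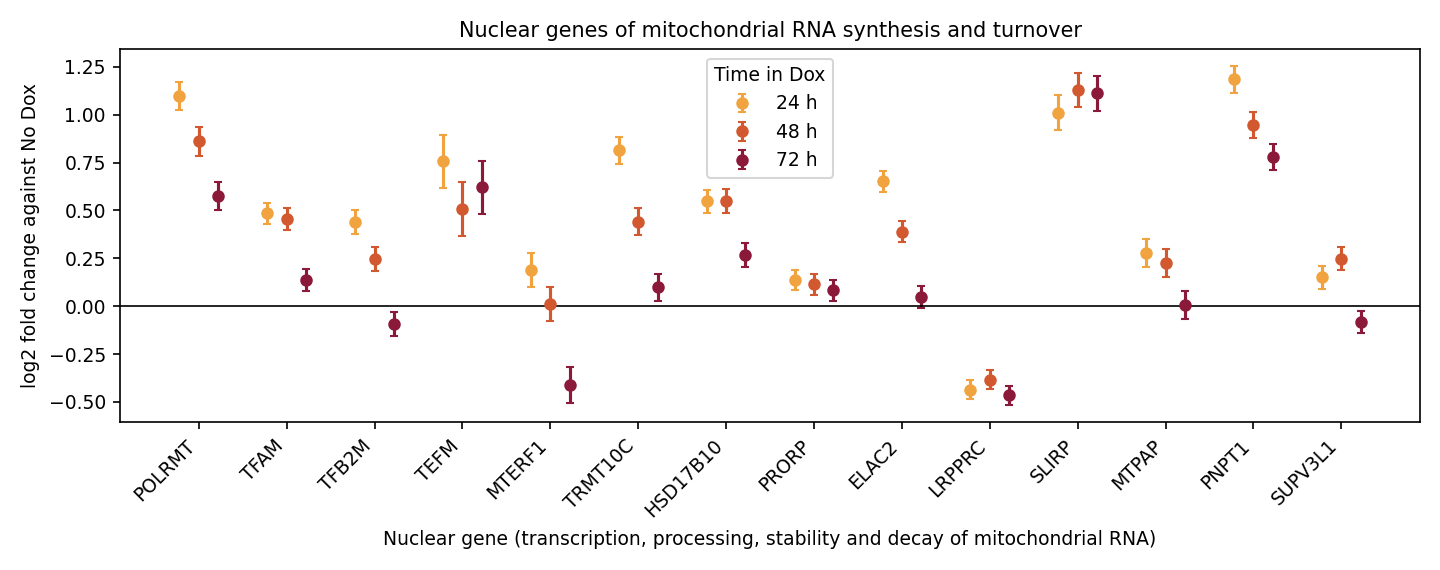
Log2 fold change against No Dox (y axis, edgeR) of 14 nuclear genes of mitochondrial transcription, RNA processing, stability and decay (x axis), at 24, 48 and 72 h in Dox. Points are fitted changes and bars their SE; POLRMT, SLIRP and PNPT1 were above 0 at all 3 times and LRPPRC below 0.

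Of 13 genes of RNA cleavage and processing, 11, 8 and 5 were higher and 1, 0 and 2 lower at 24, 48 and 72 h, with medians of 0.38, 0.24 and 0.08, beside the 37.1%, 36.0% and 34.3% of all genes that were higher. TRMT10C and HSD17B10, subunits of the enzyme that cuts tRNA 5′ ends, were higher at 24 h by 0.81 and 0.55 (adjusted p 1.01e-09 and 6.54e-08), and PRORP, its nuclease, by 0.14 (adjusted p 0.0283). ELAC2, which cuts the 3′ ends, was higher at 24 h by 0.65 (adjusted p 8.28e-10) and had 0.05 at 72 h (adjusted p 0.453). Of 7 genes of stability, polyadenylation and decay, 6, 6 and 3 were higher and 1 lower at each time, with medians of 0.86, 0.39 and 0.07. The one that fell was LRPPRC, whose complex with SLIRP protects mitochondrial mRNAs. LRPPRC stood at 336, 345 and 337 CPM without Dox, 228, 262 and 244 at 24 h, 244, 262 and 263 at 48 h, and 240, 256 and 234 at 72 h. On the log2 scale it changed by -0.44, -0.38 and -0.47 (SE 0.05 each, adjusted p 6.49e-08, 5.14e-07 and 3.21e-08). Its partner SLIRP went the other way, by 1.01, 1.13 and 1.11 (SE 0.09 each, adjusted p 2.21e-09, 4.16e-10 and 5.9e-10). PNPT1, the exoribonuclease of mitochondrial RNA decay, was higher by 1.18, 0.95 and 0.78 (SE 0.07 each, adjusted p 1.53e-12, 8.47e-11 and 2.4e-09). SUPV3L1, its helicase, was higher by 0.15 at 24 h and 0.25 at 48 h and had -0.08 at 72 h (adjusted p 0.0252, 0.000704 and 0.216). MTPAP, which adds the tails, was higher by 0.28 and 0.23 at 24 and 48 h and had 0.01 at 72 h (adjusted p 0.00197, 0.00892 and 0.935).

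For the other nuclear lists the all-gene shares are again 37.1%, 36.0% and 34.3% higher and 38.1%, 35.8% and 34.8% lower. Of 11 tested regulators of mitochondrial genes, 3, 3 and 2 were higher and 7, 7 and 6 lower at 24, 48 and 72 h, with medians of -0.27, -0.34 and -0.40. PPARGC1A, a co-activator of mitochondrial biogenesis, was at 4.38 to 5.35 CPM without Dox and at no more than 0.05, 0.17 and 0.05 CPM at 24, 48 and 72 h (adjusted p 4.07e-11, 1.86e-10 and 4.33e-11). NRF1, a transcription factor of nuclear mitochondrial genes, was higher by 1.03, 0.50 and 0.35 (adjusted p 5.4e-09, 0.000176 and 0.00469), and TFEB, a regulator of lysosomal genes, had -1.97 at 24 h (adjusted p 2.73e-11). Of 17 replication and nucleoid genes, 10, 10 and 9 were higher and 5, 7 and 4 lower, with medians of 0.67, 0.40 and 0.21. RNASEH1, which removes RNA from DNA hybrids, and LIG3, the mitochondrial ligase, were higher by 1.02 and 1.36 at 72 h (adjusted p 1.91e-09 and 3.65e-15), and TYMP, which degrades thymidine, had -2.70 (adjusted p 7.71e-15). Of 21 rRNA modification and ribosome assembly genes, 12, 10 and 5 were higher and 5, 6 and 9 lower, with medians of 0.24, 0.19 and 0.08. MRM2, which methylates the large rRNA, was higher by 1.02 at 24 h (adjusted p 6.13e-11) and had 0.16 at 72 h (adjusted p 0.0728). Of 12 tRNA maturation genes, 7, 6 and 4 were higher and 0, 0 and 1 lower, with medians of 0.28, 0.27 and 0.09. YRDC, a tRNA-modifying enzyme, was higher by 1.37 at 24 h (adjusted p 2.65e-12). Of 13 translation factors, 5, 6 and 5 were higher and 3, 4 and 4 lower, with medians of 0.09, 0.03 and 0.08, so that the share that was higher at 24 h lay near that of all genes. TACO1, a translational activator of MT-CO1, was higher by 1.14 at 24 h (adjusted p 5.67e-12).

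The nuclear subunits that join the mitochondrial ones in the respiratory complexes were counted by complex, and differences between complexes were not tested. Of all tested genes, 37.1%, 36.0% and 34.3% were higher and 38.1%, 35.8% and 34.8% lower at 24, 48 and 72 h, with medians of -0.03, -0.01 and -0.02. Of 37 complex I subunits, 24, 24 and 15 were higher and 4, 3 and 5 lower at 24, 48 and 72 h, with medians of 0.34, 0.22 and 0.11. Of 18 complex V subunits, 10, 9 and 10 were higher and 2 lower at each time, with medians of 0.17, 0.24 and 0.21. Of 9 complex III subunits, 4 were higher at each time and 3, 3 and 4 lower, with medians of -0.01, -0.05 and 0.08, near the shares of all genes. Of 11 complex IV subunits, 2, 1 and 1 were higher and 5 lower at each time, with medians of -0.10, -0.16 and -0.12. None of these nuclear subunits changed by 2-fold at adjusted p under 0.05, and the difference between nuclear and mitochondrial subunits was not tested.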

How the data were processed

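RNA of 12 MCF10A libraries was poly(A)-selected and sequenced from both ends. Per the labels and the study's methods, the authors ran STAR against GRCh38 with GENCODE version 22 and then RSEM. Their versions, and whether RSEM used strand, were not given in the sources used here. The deposited tables hold RSEM expected counts, TPM, FPKM (not used), length and effective length. A count need not be whole, because RSEM shares reads between genes, and counts were rounded for tests. Deposited TPM, scaled by the authors to a common total per library, were used for shares and levels per length only. Names and coordinates came from GENCODE version 44 on the same build for 56321 of 60483 rows, and sequences from its transcripts and the GRCh38 genome.

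CPM are counts scaled to the library total, with no TMM factor, while fold changes use TMM. Genes were kept with filterByExpr (14822), scaled with TMM factors and fitted with all 12 libraries and a mean per group in edgeR 4.0.16 (glmQLFit and glmQLFTest, R 4.3.3, limma 3.58.1), with Benjamini-Hochberg adjustment over all tested genes. Calls used adjusted p under 0.05, and where stated a change of at least 2-fold either way. Each SE is that implied by the quasi-likelihood F. The members and gene lists were chosen with earlier results of these data known. All 15 members with counts are named. Also named are a panel of 16 nuclear genes and, from each list, up to 2 members with the highest and 2 with the lowest change past both thresholds. One item is not reported here. The script was tested on simulated data. Alternatives were DESeq2 1.42.0, effective lengths, other scaling factors and filters, glmTreat, fits of the groups compared, a replicate block, nuclear copies added, other denominators and leaving out each library.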

Additional observations from a re-analysis of the deposited data

Results flagged for a closer look

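Members whose change against No Dox differed between Dox times by the direct test in the edgeR fit are given as log2 fold changes of the later against the earlier time, and these comparisons share libraries. At 48 h against 24 h, 5 members differed: MT-RNR2 by -0.44, MT-ND1 by -0.51, MT-CO3 by -0.40, MT-ND5 by -0.53 and MT-CYB by -0.38. Of all tested genes, 36.5% passed in that comparison. At 72 h against 48 h, 8 members differed: MT-ND1 by -0.81, MT-ND2 by -0.79, MT-CO1 by 0.32, MT-ATP6 by -0.27, MT-ND4 by 0.29, MT-ND5 by -0.30, MT-ND6 by -1.13 and MT-CYB by -0.17. Of all tested genes, 38.7% passed there. At 72 h against 24 h, where 60.7% of all tested genes passed, 12 members differed. Of these, MT-RNR1 (-0.28), MT-RNR2 (-0.40), MT-ND1 (-1.32), MT-ND2 (-0.79), MT-ATP6 (-0.41), MT-CO3 (-0.54), MT-ND3 (-0.25), MT-ND5 (-0.82), MT-ND6 (-1.15) and MT-CYB (-0.54) were lower at 72 h, and MT-CO1 (0.32) and MT-ND4 (0.17) were higher. The 72 h and 24 h libraries of MT-RNR1 and of MT-ND3 overlapped (adjusted p 0.0222 and 0.0358). Leaving out 1 library gave 5 to 7 members at 48 h against 24 h. It gave 6 to 11 at 72 h against 48 h and 9 to 12 at 72 h against 24 h. With 3 libraries a group, no search for single libraries far from their group was made.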

How the results depend on the processing

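Of 294 counts of members under other settings 290 stayed within 1.5 times the reported value, and of 1080 values of single members against No Dox 1044 kept their direction and side of the threshold, 10 lost the call, 14 gained one and 12 changed sign. With glmTreat, the members past 2-fold were 1 at 48 h against No Dox, 0 at 72 h against 48 h and 1 at 72 h against 24 h. Without a filter on low counts, 8 members passed at 48 h against 24 h. The share of TPM gave log2 ratios of -0.10, -0.21 and -0.31 for the mRNAs at 24, 48 and 72 h and of -1.60, -1.95 and -1.94 for the rRNAs, and without MT-ATP8, a choice made after seeing the data, the mRNAs had -0.17, -0.28 and -0.32. TPM divide by effective length, in which MT-ATP8 differs from the rest by construction. MT-ATP8 changed sign with effective lengths in DESeq2 and edgeR at 24 h (0.025 and 0.029) and 48 h (-0.112 and -0.09). Without 1 library, MT-ATP8 ranged over -0.209 to 0.076 at 24 h, -0.064 to 0.182 at 48 h and -0.291 to 0.015 at 72 h, MT-CO3 over -0.072 to 0.029 at 24 h, and MT-ATP6 over -0.152 to 0.012 at 72 h. The cause was not tested.

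Leaving out 1 library gave 11 to 12, 12 to 13 and 10 to 12 members past adjusted p at 24, 48 and 72 h against No Dox. Replicate numbers showed no clear pairing, though 3 libraries a group cannot exclude it. Deviations from group means correlated at -0.21 to 0.32 in 18 same-number pairs, and only 3 exceeded 0.1. The mean was 0.017 in these pairs and -0.009 in the others. With a replicate block, 11, 13 and 13 members passed at 24, 48 and 72 h, MT-ND4 (-0.13) and MT-ND6 (-0.25) being added at 72 h. No other scaling moved the median of all genes by more than 0.06 on the log2 scale. Depth did not limit the members with counts, which held at least 37 CPM in every library, and the tRNAs lie outside what these libraries measure.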
